A study of Mus musculus with 12 samples.

Results

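Histone lysine methylation is written by methyltransferases and removed by demethylases. Here 41 genes for these enzymes were followed in mouse macrophages labelled wild type or knockout for the methyltransferase DOT1L. The cells were untreated or exposed to bacterial lipopolysaccharide (LPS). The 41 genes were given as a list, 25 methyltransferases and 16 demethylases, and Dot1l itself was not among them. The first group includes Kmt2e, a relative of the MLL methyltransferases, and the last group Jmjd6, whose main activity is debated. All 41 were found by symbol among the 24445 genes of the deposited tables, each taken from the transcript with the highest total count. The list was drawn up with earlier results of these data known, its rule sets no threshold on a measured value, and all 41 passed the filter on low counts in every comparison.

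The cells were bone marrow-derived macrophages from C57BL/6 mice, grown for 7 to 8 days with L929-conditioned medium, which supplies M-CSF. Mice were labelled wild type (WT) or knockout (KO) for DOT1L in the myeloid lineage, and Lyz2 is named in the strain. Lyz2 is active in macrophages and other myeloid cells and is widely used to drive Cre. Which part of Dot1l is deleted is not given in the sources used here. Cells were left untreated or received 10 ng/mL LPS from Escherichia coli for 3 hours, which made 4 groups of 3 libraries: WT untreated, KO untreated, WT with LPS and KO with LPS. The labels call the 3 libraries biological replicates, and whether each came from its own animal is not stated, so that p-values measure the spread between these libraries.

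Methyl groups on histone H3 lysine 4 (H3K4) and lysine 36 (H3K36) are known as marks of promoters and of transcribed gene bodies. Those on H3K9, H3K27 and H4K20 are known for silenced or compacted chromatin, while DOT1L methylates H3K79. Most of the methyltransferases share a SET domain and take the methyl group from S-adenosylmethionine. Demethylases fall into the flavin-dependent LSD enzymes and the JmjC enzymes, which need iron, oxygen and 2-oxoglutarate.

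The start regions of the pair of members with the largest rises after LPS, Setdb2 and Kdm4a, and of the pair with the largest falls, Kmt5c and Kdm5b, are shown to set their sequence beside their response. Each is the RefSeq window (GRCm38.p6) from 250 bases before to 50 bases after the annotated start, written 5′ to 3′ on the gene's strand, with a motif match in capitals. The windows are chr14:59440831-59441130 (minus strand) for Setdb2, chr4:118179994-118180293 (minus) for Kdm4a, chr7:4739877-4740176 (plus) for Kmt5c and chr1:134559928-134560227 (plus) for Kdm5b.
Setdb2: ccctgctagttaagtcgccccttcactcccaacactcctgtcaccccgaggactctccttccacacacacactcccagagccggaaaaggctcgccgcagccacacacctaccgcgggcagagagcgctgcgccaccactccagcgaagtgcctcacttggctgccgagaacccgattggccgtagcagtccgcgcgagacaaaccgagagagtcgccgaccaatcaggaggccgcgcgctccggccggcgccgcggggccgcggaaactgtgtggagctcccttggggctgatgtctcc
Kdm4a: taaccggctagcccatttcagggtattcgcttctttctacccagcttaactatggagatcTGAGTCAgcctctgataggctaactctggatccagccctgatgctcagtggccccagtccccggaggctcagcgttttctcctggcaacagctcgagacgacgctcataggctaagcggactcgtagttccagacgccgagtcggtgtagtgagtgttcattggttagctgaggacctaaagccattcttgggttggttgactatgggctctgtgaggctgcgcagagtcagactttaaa
Kmt5c: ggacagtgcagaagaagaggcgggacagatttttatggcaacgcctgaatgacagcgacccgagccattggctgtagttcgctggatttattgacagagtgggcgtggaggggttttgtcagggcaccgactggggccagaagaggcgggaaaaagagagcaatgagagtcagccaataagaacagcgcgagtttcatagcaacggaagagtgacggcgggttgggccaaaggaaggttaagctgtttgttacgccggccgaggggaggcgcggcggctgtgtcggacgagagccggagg
Kdm5b: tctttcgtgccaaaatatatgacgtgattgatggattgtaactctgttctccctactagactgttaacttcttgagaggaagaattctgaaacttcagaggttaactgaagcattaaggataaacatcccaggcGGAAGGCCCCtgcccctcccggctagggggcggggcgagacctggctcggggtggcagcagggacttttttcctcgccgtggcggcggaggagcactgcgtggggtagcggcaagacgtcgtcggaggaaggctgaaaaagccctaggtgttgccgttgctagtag

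Motifs of 4 factor families that are known to act in LPS responses were searched on both strands: the interferon-stimulated response element (ISRE consensus), the kappa B consensus, the AP-1 element TGANTCA and the CRE TGACGTCA. In the Kdm4a window an AP-1 match began 190 bases before the start. In the Kdm5b window a kappa B match began 116 bases before the start. The Setdb2 and Kmt5c windows held none of the 4, which says only that these letters are not in these windows. Of all 32851 RefSeq windows, 3.44% held the interferon-stimulated element, 8.46% the kappa B consensus, 7.81% the AP-1 element and 1.79% the CRE. RefSeq gave 40 windows for 29 of the 41 members, and of these 40 windows 0, 4, 3 and 1 held a match in the same order.

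Total counts ran from 8.64 to 13.54 M (1e6) per library, and levels of 1 gene are given as counts per 1e6 counts (CPM) on a common scale set by trimmed mean factors (TMM). Dot1l counts lay at 82.4, 111 and 111 CPM in WT and at 97.8, 85.7 and 86.4 CPM in KO untreated libraries, and at 60.6 to 69.2 (WT) and 65.3 to 73.3 (KO) with LPS. The whole-transcript count therefore does not separate the genotypes, and WT and KO below stand for the labels. Lyz2, also a macrophage marker, stood at 5730 to 7210 CPM in WT and 2620 to 3030 in KO untreated libraries. The summed CPM of 10 macrophage markers, Lyz2 among them, was 10700 to 13600 in WT and 7920 to 8810 in KO untreated libraries, and 13400 to 16500 and 10100 to 11500 with LPS. Lyz2 makes up a large part of this sum and had the lowest log2 difference of KO against WT (-1.16 untreated, -1.17 with LPS). In each condition 5 of the 10 markers were higher and 5 lower in KO, with medians of -0.01 untreated and 0.0 with LPS. Of other cell types, 7 erythroid and megakaryocyte markers summed to 90.5 to 102 CPM in WT and 135 to 158 in KO untreated libraries and to 135 to 143 and 177 to 253 with LPS, with Hba-a1 and Hbb-bs at 0 in all libraries. The sums of 8 dendritic cell markers overlapped between the genotypes (92.2 to 160 CPM over all libraries), and 7 lymphocyte markers reached at most 0.746. Itgax made up most of the dendritic cell sum. It was the only such marker tested in untreated cells (log2 difference -0.03). With LPS all 4 tested dendritic cell markers were higher in KO (median 0.67), and none was called. These were Itgax (0.13) and, at low counts, Xcr1 (0.90), Ccr7 (0.69) and Zbtb46 (0.66). The part of these differences in the results below was not tested. The library numbered 2 of each group alone carried the Y-linked Ddx3y (94.2 to 106 CPM), so that sex was balanced between the groups. In bulk RNA, fewer cells of a type and less RNA per cell cannot be told apart.

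The strand setting of the counting is not given, and 11 of the 41 members share bases with another protein-coding gene in the RefSeq annotation. These are Kmt2e (with Srpk2), Setdb1 (Cers2), Setdb2 (Gm45935), Suv39h2 (Dclre1c), Ash1l (Dap3), Kdm1a (Luzp1), Kdm1b (Dek), Kdm2a (9430078G10Rik), Kdm5a (Ccdc77), Kdm5b (Mgat4e) and Jmjd6 (Mettl23). In the shared bases the reads of the 2 genes cannot be told apart.

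The WT libraries numbered 1 stood apart for the members. The untreated one was the highest of its group for 30 of the 41 members and the one with LPS for 31, against 42.6% and 39.8% of all tested genes. Kmt2e, an H3K4-binding relative of the MLL enzymes, had 267 CPM in that untreated library and 140 and 132 CPM in the other two. Kdm6b, an H3K27 demethylase, had 23.3 CPM there and 10.8 and 12.2 in the other two. Member calls gained or lost without 1 of these libraries are given below with both values.

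**Figure D1:**
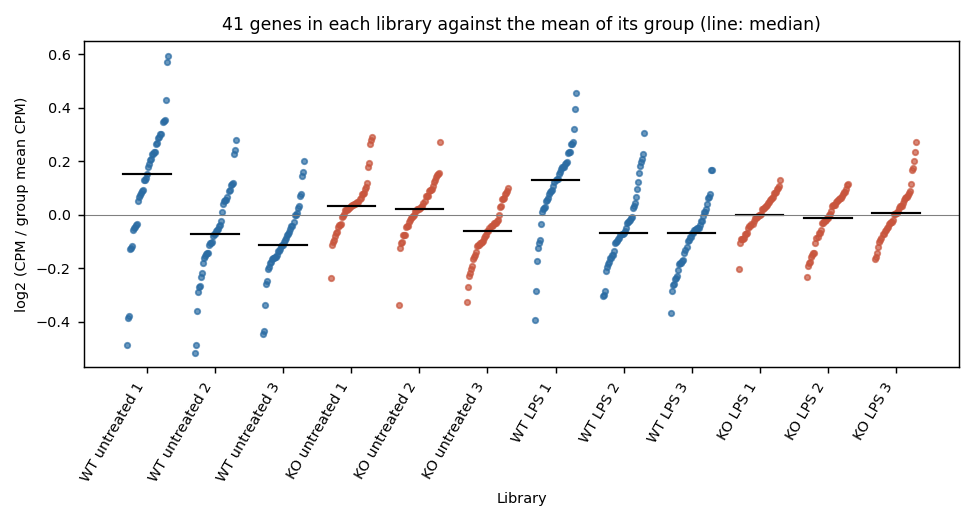
Level of each of the 41 members in each library (log2 of its CPM over the mean CPM of its group, y axis) by library (x axis), with WT in blue, KO in red and the median as a black line. The WT libraries numbered 1 sit above their group's mean for most members, with the highest value for 30 (untreated) and 31 (LPS) of 41.

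Compared per transcript length within a group, on the authors' RPKM scale, the members spanned more than 1 order of magnitude. Ehmt2, the H3K9 methyltransferase G9a, was the most abundant in untreated cells, with a level of 44.1 ± 5.64 RPKM in WT and 48.7 ± 1.64 in KO (SD, n = 3). Kmt5a, which places the first methyl group on H4K20, came second at 35.2 ± 4.18 RPKM in WT. The least abundant methyltransferase was Suv39h2, an H3K9 enzyme known from testis, at 1.84 ± 0.330 RPKM in WT. Among demethylases Kdm2a, an H3K36 enzyme, was highest at 21.3 ± 2.63 RPKM in untreated WT and Kdm8 lowest at 1.26 ± 0.334. The 2 H3K27 methyltransferases lay close together, Ezh1 at 15.4 ± 1.28 and Ezh2 at 16.8 ± 1.65 RPKM, within their spread. With LPS the order changed at the top, as Setdb2 moved from rank 35 of 41 in untreated WT to rank 1, with a level of 50.3 ± 7.46 RPKM in WT and 45.0 ± 2.24 in KO. Kdm5b moved from rank 37 to rank 41 at 0.660 ± 0.0304 RPKM in WT.

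The LPS comparison asks how macrophages change these enzymes 3 hours after the stimulus, and it moved most of them. In WT cells 11 of 41 members rose and 16 fell, and in KO cells 10 rose and 14 fell (edgeR quasi-likelihood test, Benjamini-Hochberg adjusted p below 0.05 over all 11984 genes tested). Of all genes tested, 27.6% rose and 29.8% fell in WT, and 30.3% rose and 30.9% fell in KO, so that the members' shares lay near those of all genes. Groups of untreated and LPS libraries that do not overlap were common too, at 57.8% of all genes in WT and 74.1% in KO. Among the 41 members they were found for 10 higher and 16 lower in WT, and for 11 higher and 16 lower in KO. The 10 members that rose in KO also rose in WT, and the 14 that fell in KO also fell in WT. The other 3 WT calls were Kdm3b (higher) and Jmjd6 and Setd1a (lower). The scale matters, as seen with library totals in place of TMM factors. The median log2 change of all genes went from -0.05 to -0.59 in WT and from -0.02 to -0.62 in KO. Of all 11984 genes, 1723 were then called higher and 7621 lower in WT, and 1777 and 7823 in KO. The members called became 3 higher and 30 lower in WT and 2 higher and 31 lower in KO. Setdb2 and Kdm4a rose and every called fall stayed a fall on both scales, in both genotypes. All log2 changes below are on the TMM scale, with standard errors after ±.

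**Figure D2:**
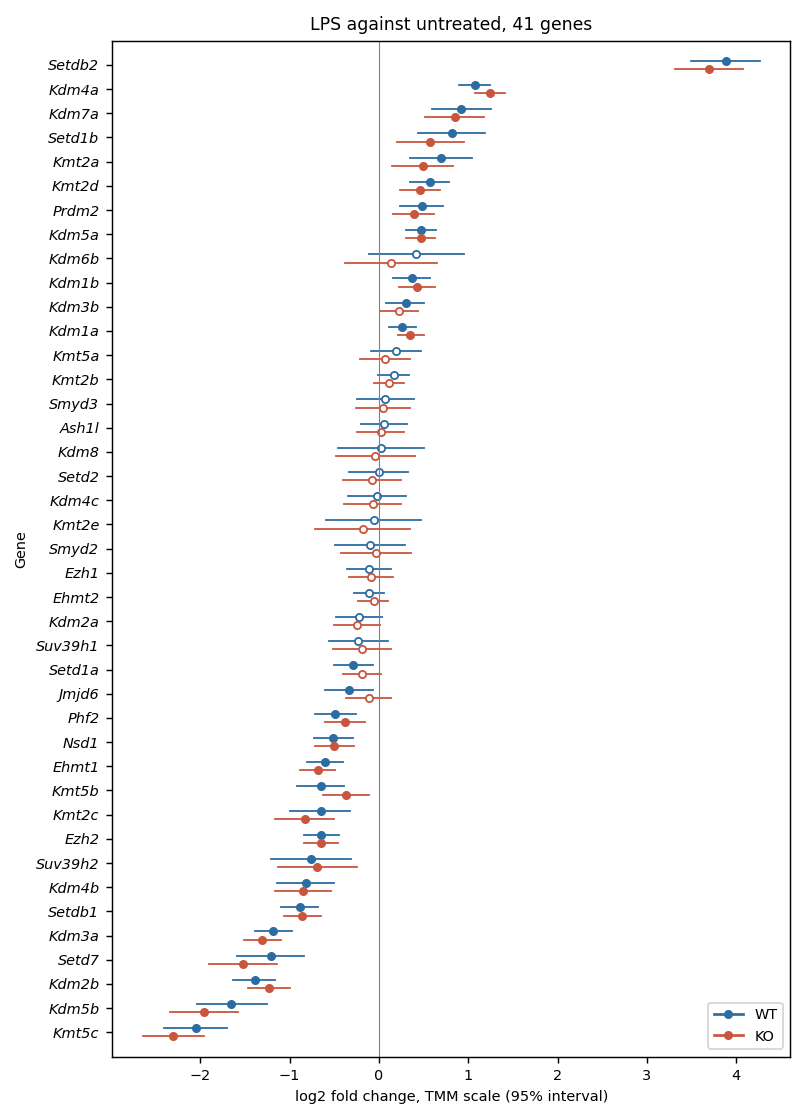
Log2 fold change of LPS against untreated cells on the TMM scale (x axis) for the 41 members (y axis, ordered by the WT value), with 95% intervals. WT is blue and KO red, filled points passed the adjusted threshold and open points did not. Setdb2 stands far to the right at 3.88 and 3.69, and Kmt5c lies lowest at -2.05 and -2.30.

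Among the 8 genes classed with the H3K4 methyltransferases, Kmt2e included, 3 rose and 3 fell in WT (3 and 2 in KO). Setd1b, the catalytic subunit of a SET1 complex, had 87.1, 56.7 and 61.0 CPM in untreated WT and 158, 98.5 and 104 CPM with LPS, and in KO it went from 63.9 to 72.2 up to 98.8 to 106 CPM. The groups do not overlap in either genotype, and the log2 changes were 0.82 ± 0.18 in WT (adjusted p = 0.00123) and 0.57 ± 0.17 in KO (0.011). Kmt2a (MLL1) rose by 0.70 ± 0.16 in WT and 0.49 ± 0.16 in KO, and Kmt2d (MLL4), which marks enhancers, by 0.57 ± 0.10 and 0.46 ± 0.10. By library totals these 3 were not called higher, and in KO their values were -0.02, -0.10 and -0.13. In KO, Kmt2a missed the threshold without untreated replicate 3 (0.33, adjusted p = 0.096) or untreated replicate 2 (0.46, 0.0541), and Setd1b just missed it without untreated replicate 3 (0.51, 0.0507).

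Setd7, which places 1 methyl group on H3K4 and also modifies other proteins, had the largest fall of the class. Its level was 126, 76.8 and 78.4 CPM in untreated WT and 47.7, 36.9 and 37.0 with LPS. KO libraries went from 88.3, 100.0 and 83.9 CPM to 32.4, 33.8 and 28.6. Every LPS library thus lay below every untreated one. The log2 change was -1.21 ± 0.18 in WT (adjusted p = 4.2e-05) and -1.52 ± 0.18 in KO (4.13e-06). Kmt2c (MLL3), a paralog of Kmt2d, fell by 0.65 in WT and 0.83 in KO on the log2 scale, while Kmt2b and Kmt2e were not called in either genotype. Without WT untreated replicate 1, Kmt2b was called higher in WT (0.23, adjusted p = 0.0276). The fall of Setd1a (-0.29 ± 0.10, adjusted p = 0.0241) was called in WT, but not without WT untreated replicate 1, LPS replicate 2 or LPS replicate 3 (adjusted p from 0.067 to 0.12).

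Setdb2, an H3K9 methyltransferase gene of the SETDB family that is known as interferon-induced, changed more than any other member. In WT its level was 17.5, 14.9 and 10.6 CPM untreated and 262, 189 and 179 CPM with LPS. In KO it was 14.3, 13.4 and 14.7 CPM untreated and 171, 197 and 179 CPM with LPS. No LPS library came near an untreated one, and the change was 14.7-fold in WT (log2 3.88 ± 0.18, adjusted p = 2.96e-10) and 12.9-fold in KO (3.69 ± 0.18, 3.64e-10). The readthrough gene Gm45935, singled out after its values were seen, ends together with Setdb2 and carried nearly the same reads (181 and 178 in WT untreated replicate 1, 1748 and 1719 in WT LPS replicate 1), so the 2 transcripts cannot be told apart. The window printed above is that of Setdb2.

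Of the other H3K9 methyltransferases, Prdm2 rose by 0.48 ± 0.11 in WT and 0.39 ± 0.11 in KO on the TMM scale, and by library totals it was not called higher. Setdb1, which silences retroelements together with TRIM28, fell from 106, 87.2 and 88.2 CPM to 55.4, 48.5 and 49.0 CPM in WT and from 88.1, 98.3 and 90.3 to 51.8, 49.0 and 52.1 CPM in KO. The paralogs Setdb1 and Setdb2 thus moved in opposite directions, with Setdb1 at -0.88 ± 0.09 in WT (adjusted p = 2.18e-06) and -0.86 ± 0.09 in KO (2.29e-06). Ehmt1 (GLP), the partner of G9a, fell by 0.60 and 0.68, whereas Ehmt2 itself stood at -0.11 ± 0.08 and -0.06 ± 0.08, past the threshold in neither genotype. Suv39h2 fell by 0.76 in WT and 0.69 in KO (adjusted p = 0.0101, and 0.0539 without KO untreated replicate 1), at no more than 8.72 CPM in any library. Suv39h1, the main enzyme of pericentric H3K9 methylation, was not called in either genotype, but was called lower in WT without WT untreated replicate 1 (-0.36, adjusted p = 0.0175).

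The 2 catalytic subunits of the Polycomb complex PRC2, which methylates H3K27, differed in their response. Ezh2 had 40.3, 44.7 and 40.7 CPM in untreated WT and 25.0, 28.5 and 26.6 with LPS. In KO it had 36.9, 36.7 and 37.9 CPM untreated and 22.6, 25.2 and 23.4 with LPS. The groups were apart in both genotypes, and Ezh2 fell by 0.65 ± 0.09 on the log2 scale in WT (adjusted p = 2.67e-05) and by 0.65 ± 0.09 in KO (2.2e-05). Ezh1 ran from 55.3 to 71.0 CPM in untreated WT and from 50.5 to 64.6 with LPS, overlapping, with log2 changes of -0.11 ± 0.12 in WT (adjusted p = 0.446) and -0.09 ± 0.12 in KO (0.52). By library totals Ezh1 was called lower in both genotypes, at -0.66 and -0.68, near the all-gene medians on that scale. Ezh2 is known to follow the cell cycle. In the same libraries 17 of 26 cell cycle genes fell and 1 rose in each genotype, and their summed level went from 2260 to 2820 CPM in untreated WT to 1910 to 2170 with LPS and from 2180 to 2510 to 1780 to 1980 in KO. The part of cell cycle in the Ezh2 change was not tested.

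Among the H3K36 methyltransferase genes, Nsd1 fell by 0.51 ± 0.10 in WT and 0.50 ± 0.10 in KO. Setd2, the enzyme of H3K36 trimethylation, Ash1l and Smyd2 were not called, with WT values of 0.00, 0.06 and -0.10, and by library totals all 4 were called lower. Smyd3, whose reported substrates include histones and cytoplasmic kinases, ran from 7.67 to 11.0 CPM over all 12 libraries and was not called.

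The H4K20 enzymes held the largest fall of all members. Kmt5c (SUV420H2), which adds the later methyl groups to H4K20 in heterochromatin, had 28.3, 21.6 and 22.2 CPM in untreated WT and 6.14, 5.96 and 5.23 CPM with LPS. KO libraries had 24.0, 31.4 and 29.4 CPM untreated and 5.40, 5.08 and 6.77 with LPS. Levels with LPS were thus about 0.241 of the untreated level in WT (log2 -2.05 ± 0.16, adjusted p = 1.02e-07) and 0.204 in KO (-2.30 ± 0.16, 1.8e-08). Its paralog Kmt5b fell less, by 0.65 ± 0.12 in WT and 0.37 ± 0.12 in KO (adjusted p = 0.0152, and 0.075 without KO LPS replicate 3). Kmt5a was not called, at 0.19 ± 0.13 in WT and 0.07 ± 0.13 in KO, but was called higher in WT without untreated replicate 1 (0.35, adjusted p = 0.0117) or LPS replicate 2 (0.32, 0.0399).

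**Figure D3:**
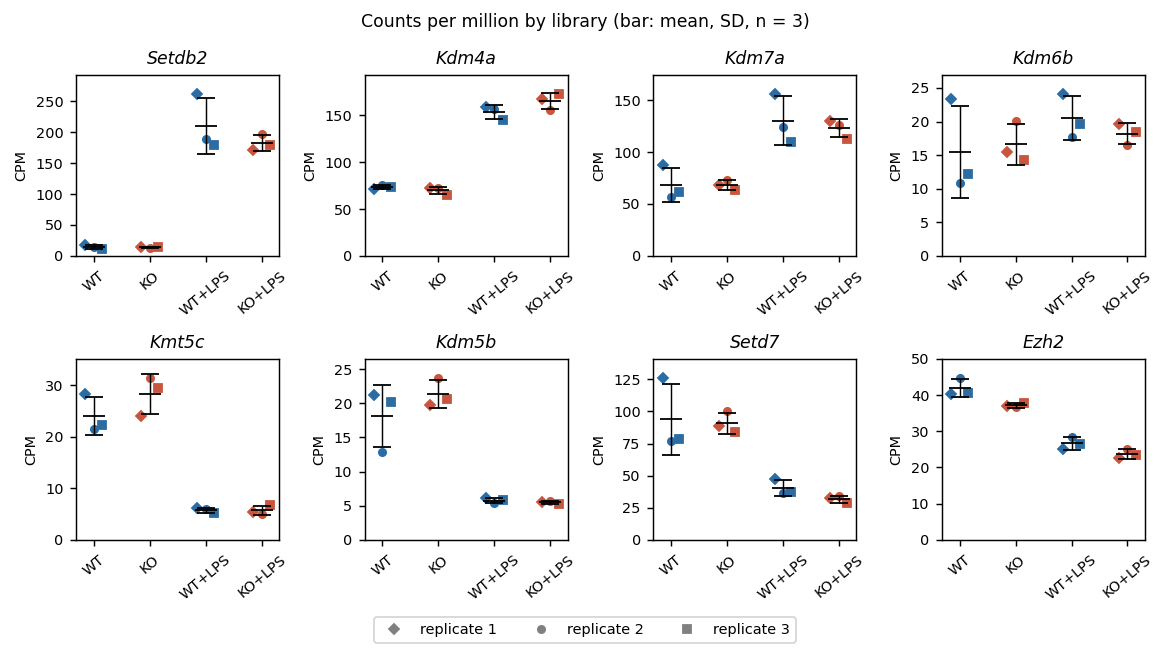
CPM (y axis, from 0) of 8 members in each library by group (x axis), with WT in blue, KO in red, 1 symbol per replicate number, and the mean and SD of 3 libraries in black. The LPS libraries of Setdb2 (171 to 262) and Kmt5c (5.08 to 6.77) are separated from all untreated libraries, and Kdm6b has its highest untreated value, 23.3, in WT replicate 1.

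The 2 flavin-dependent demethylases rose on the TMM scale, Kdm1a (LSD1) by 0.26 ± 0.07 in WT and 0.35 ± 0.07 in KO and Kdm1b (LSD2) by 0.37 ± 0.09 and 0.43 ± 0.09, but by library totals Kdm1a was called lower in both genotypes and Kdm1b was not called. Of the H3K4 JmjC demethylases, Kdm5a and Kdm5b moved apart. Kdm5b went from 21.2, 12.9 and 20.2 CPM to 6.14, 5.36 and 5.80 CPM in WT and from 19.8, 23.7 and 20.7 to 5.57, 5.63 and 5.26 CPM in KO. No LPS library reached the lowest untreated one, and the log2 change was -1.65 ± 0.18 in WT (adjusted p = 3.34e-06) and -1.96 ± 0.18 in KO (3.3e-07). Kdm5a, an RB-binding paralog, rose by 0.47 ± 0.08 in both, and by library totals it was not called higher.

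Kdm4a, which removes methyl groups from H3K9 and H3K36, had 71.2, 75.3 and 73.1 CPM in untreated WT and 159, 157 and 145 CPM with LPS. In KO the levels were 72.2, 72.5 and 65.3 CPM untreated and 168, 156 and 173 with LPS. The replicates lay close together, and the level was 2.10-fold higher in WT (log2 1.07 ± 0.08, adjusted p = 3.52e-08) and 2.37-fold in KO (1.24 ± 0.08, 5.9e-09). The tables hold 2 Kdm4a transcripts, and the shorter one lacks the last 3 exons of the longer. Reads counted for the shorter transcript include those in the exons it shares with the longer. Their level rose less, from 47.0 ± 2.68 to 76.6 ± 7.53 CPM in WT (SD, n = 3). The difference between the transcripts, reads that lie in the part at the 3′ end alone, went from 26.2 ± 1.35 to 77.2 ± 3.36 CPM in WT and from 25.5 ± 1.08 to 89.8 ± 7.03 in KO. In log2 terms the count of the shorter transcript changed by 0.70 in WT and 0.77 in KO and that of the 3′ part by 1.56 and 1.82. These values were chosen after they were seen and not tested, and they do not separate the 2 isoforms. For the other members with several transcripts the LPS changes of the transcripts differed by no more than 0.17. Its paralog Kdm4b moved the other way, falling from 19.6, 22.2 and 22.5 to 9.89, 13.7 and 12.6 CPM in WT (log2 -0.82 ± 0.15, adjusted p = 0.000307; -0.85 ± 0.14 in KO), and Kdm4c was not called.

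The H3K9 JmjC demethylases were split as well. Kdm7a, which acts on H3K9 and H3K27, had 87.5, 56.8 and 61.3 CPM in untreated WT and 156, 124 and 110 with LPS, and in KO 68.4, 72.8 and 63.4 against 130, 126 and 113 CPM. All LPS values exceeded all untreated ones. Kdm7a rose by 0.92 ± 0.16 in WT (adjusted p = 0.00016) and 0.85 ± 0.15 in KO (0.00028), and by library totals it stayed called in WT but not in KO. Kdm3a, a hypoxia-induced enzyme, fell from 74.7, 68.0 and 69.4 to 33.1, 27.6 and 32.9 CPM in WT and from 78.1, 80.3 and 71.0 to 33.8, 28.7 and 30.2 in KO. Its log2 change was -1.18 ± 0.10 in WT and -1.31 ± 0.10 in KO (adjusted p = 1.36e-07 and 3.44e-08). Phf2 fell by 0.49 and 0.38. Kdm3b was called higher in WT at 0.30 ± 0.10 (adjusted p = 0.0221), but not without WT LPS replicate 1, untreated replicate 2 or untreated replicate 3 (0.0567 to 0.0974), and by library totals it was called lower in WT.

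Kdm2b, an H3K36 demethylase that recruits a Polycomb complex to CpG islands, fell from 26.9, 30.2 and 26.5 to 10.8, 10.4 and 10.7 CPM in WT and from 25.2, 26.4 and 22.0 to 10.4, 9.97 and 11.0 CPM in KO. The log2 change was -1.39 ± 0.11 in WT (adjusted p = 8.13e-08) and -1.23 ± 0.11 in KO (2.09e-07). Its paralog Kdm2a stood at -0.22 ± 0.12 and -0.25 ± 0.12, not called, and was called lower in WT without WT LPS replicate 1 (-0.32, adjusted p = 0.0344). Kdm8 stood at 0.02 and -0.04. Jmjd6 was called lower in WT at -0.34 ± 0.12 (adjusted p = 0.0298), a call lost without any 1 of 4 WT libraries (untreated replicates 2 and 3, LPS replicates 1 and 2, adjusted p from 0.0573 to 0.122).

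Kdm6b (JMJD3), the H3K27 demethylase known as an LPS-induced gene of macrophages, had 23.3, 10.8 and 12.2 CPM in untreated WT and 24.1, 17.7 and 19.7 CPM with LPS. KO libraries had 15.5, 20.1 and 14.3 CPM untreated and 19.6, 16.5 and 18.5 with LPS. The groups overlapped in both genotypes, and the log2 change of 0.42 ± 0.24 in WT (adjusted p = 0.16) and 0.13 ± 0.24 in KO (0.656) passed no threshold. Without WT untreated replicate 1 the WT change was 0.85 (adjusted p = 0.000392), and without both WT libraries numbered 1 it was 0.73 (0.000639). Same-numbered libraries of a genotype varied together, and with the replicate number as a block the WT change was 0.47 ± 0.15 (adjusted p = 0.00993).

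With that block, 14 members were called higher and 18 lower in WT and 11 higher and 18 lower in KO. Calls grew over all genes too. Of 11984 genes, 3947 were called higher and 4209 lower in WT, and 4348 and 4353 in KO, against 3309 and 3567 in WT and 3633 and 3700 in KO without the block. The added WT calls, besides Kdm6b, were Kmt2b (0.16) and Kmt5a (0.19) higher and Kdm2a (-0.21) and Suv39h1 (-0.23) lower. The added KO calls were Kdm3b (0.23) higher and Kdm2a (-0.25), Kmt2e (-0.17), Setd1a (-0.19) and Suv39h1 (-0.19) lower.

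The genotype comparison asks whether these enzymes differ between libraries labelled KO and WT for DOT1L. In untreated cells 0 of 41 members were higher and 0 lower in KO, as for all 11622 genes tested (0% higher, 0% lower, edgeR). Even Lyz2, at -1.16 ± 0.11 with groups that do not overlap, was not called, and its adjusted p of 0.0784 was the smallest of all genes. At an unadjusted p below 0.05 the counts were 0 members and 841 genes, and DESeq2 called 0 members, with 41 genes higher and 8 lower. Log2 differences ran from -0.27 to 0.27, with 19 members above and 22 below 0. That balance was not stable: it was 29 above and 12 below without WT untreated replicate 1, 10 and 31 without WT untreated replicate 3, and 28 and 13 by library totals. For all 41 members the 95% interval of the difference lay within a 2-fold change in either direction, and for 34 within a 1.5-fold change.

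The members with the smallest p on the lower side were Kmt5a (-0.27 ± 0.13, adjusted p = 0.716), Setd1a (-0.16 ± 0.09) and Ezh2 (-0.15 ± 0.09). On the higher side they were Kmt5c (0.26 ± 0.15, adjusted p = 0.82), Kdm3a (0.14 ± 0.09) and Kdm4b (0.16 ± 0.11). Kmt5a had 110, 82.9 and 82.1 CPM in WT and 72.7, 73.3 and 78.0 in KO, groups that do not overlap. The same held for Setd1a, Ezh2 and Kdm2b, all lower, and for no member on the higher side, against 8.24% and 7.01% of all genes. Ezh1 differed by 0.01 ± 0.12 and Kdm6b by 0.14 ± 0.29.

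WT untreated replicate 1 moved these calls. Without it, Kdm6b (0.56, adjusted p = 0.034), Kmt5c (0.39, 0.0453) and Setd1b (0.26, 0.0485) were called higher in KO, and Smyd2, an H3K36 and p53 methyltransferase, lower (-0.41, 0.0128). Without that library 437 of all genes were called higher and 312 lower. Smyd2 had 19.7 CPM in that library, 32.6 and 30.5 in the other WT libraries and 21.3 to 24.5 in KO.

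With LPS, 0 of 41 members were called higher and 0 lower in KO, where 1% of 11264 genes were higher and 0.124% lower (edgeR). At an unadjusted p below 0.05 there were 3 members, and DESeq2 and limma-voom called 0. The values ran from -0.42 to 0.17, with 12 members above and 29 below 0 (median -0.06, against -0.01 for all genes), but 23 above and 18 below without WT LPS replicate 1 (median 0.01). In the fit of all 6 libraries 36 intervals lay within a 1.5-fold and all 41 within a 2-fold change.

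Kmt5a again had the smallest p, with 119, 84.7 and 109 CPM in WT and 76.2, 77.9 and 81.6 CPM in KO. Its lowest WT value lay just above the highest KO value, and the difference was -0.42 ± 0.12 (adjusted p = 0.146). Without WT LPS replicate 2 it was called, at -0.56 (adjusted p = 0.0243, with a range of 0.0243 to 0.427 over all alternatives). Setd7 (-0.36 ± 0.12, adjusted p = 0.222) and Kmt2a (-0.24 ± 0.11, adjusted p = 0.348) followed. On the higher side stood Kmt5b (0.17 ± 0.12), Ehmt2 (0.11 ± 0.08) and Kdm4a (0.10 ± 0.08), none past the threshold. Ezh1, Ezh2 and Kdm6b differed by 0.00 ± 0.10, -0.18 ± 0.10 and -0.17 ± 0.14. Groups did not overlap for 2 members on the higher side (Ehmt2, Kdm1a), where 11.0% of genes did not, and for 5 on the lower side (Kmt2a, Kmt2c, Kmt2e, Setd7, Kmt5a), where 8.84% did not.

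**Figure D4:**
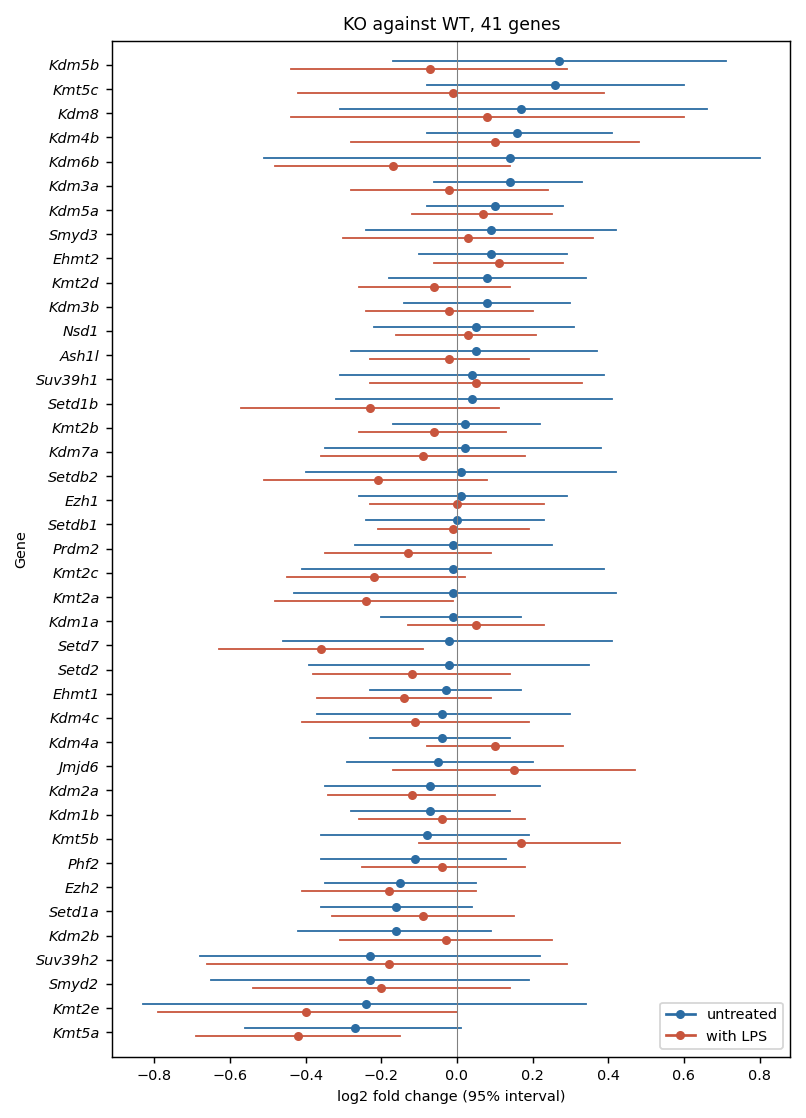
Log2 fold change of KO against WT (x axis) for the 41 members (y axis, ordered by the untreated value) with 95% intervals, untreated in blue and with LPS in red. All intervals stay within 1 log2 unit of 0, with Kmt2e reaching -0.83 and Kdm6b 0.80 in untreated cells, and no member passed the adjusted threshold.

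Whether LPS acted differently in KO was tested by the genotype by LPS interaction, KO response minus WT response. No member and no gene of 11984 was called (0% higher, 0% lower, edgeR), with 288 genes at an unadjusted p below 0.05 and 0 called by DESeq2. The values of the members ran from -0.31 (Setd7) to 0.28 (Kmt5b), with standard errors of 0.10 to 0.35. Ezh1, Ezh2 and Kdm6b stood at 0.02 ± 0.16, 0.00 ± 0.10 and -0.29 ± 0.34, so that for Kdm6b the 95% interval reached down to -1.02. The 3 members called in WT alone were tested here and not called. Kdm3b stood at -0.07 ± 0.14, Jmjd6 at 0.23 ± 0.17 and Setd1a at 0.10 ± 0.14. For Jmjd6 the 95% interval ran from -0.14 to 0.59, so equal responses are not shown either.

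The partners of these enzymes were taken from lists of their known complexes and readers, and none of their genes passed the threshold in a genotype comparison (edgeR). With LPS, 4 of 10 tested PRC2 subunits and partners rose and 2 fell in WT (4 and 3 in KO). Aebp2 and Jarid2, accessory subunits, rose by 2.06 ± 0.10 and 1.80 ± 0.09 in WT, and Suz12, a core subunit, by 0.58 ± 0.07, while Eed, also core, fell by 0.62. The core subunits Suz12 and Eed thus moved apart on the TMM scale.

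Of 13 COMPASS and MLL complex subunits, 2 rose and 8 fell in WT (2 and 6 in KO). Men1 (menin), a partner of MLL1, rose by 0.86 ± 0.08 and Rbbp5 and Paxip1 fell by 0.66 and 0.59. Of 11 H3K9 methylation readers and partners, 1 rose and 6 fell in each genotype, led by Cdyl, a reader that rose from 15.4 to 74.3 mean CPM in WT (2.26 ± 0.10), with Morc2a at -0.65 and Mphosph8 at -0.84. Of 9 LSD1 complex genes, 4 rose and 3 fell, with Hdac1 at 1.3 ± 0.12 and Rcor1 at -0.71 in WT. Of 8 H3K36 readers and partners, 2 rose and 2 fell in each genotype, and Msl3 had the smallest p (-0.64 ± 0.07), then Phf1 (-0.99) and Supt6 (0.42).

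Among 22 tested further lysine methyltransferases and demethylases, 5 rose and 9 fell in each genotype, with Jmjd1c at -0.93, Riox2 at 1.07 and Smyd4 at -2.63 in WT. Histone acetyltransferases and deacetylases gave 7 higher and 7 lower of 25 in WT (6 and 9 in KO), led by Hdac5 (-1.78), Sirt1 (1.37) and Kat2b (0.94). In methyl donor and cofactor metabolism 3 of 16 rose and 8 fell in WT (2 and 8 in KO), with Mtrr at -1.68 and Idh1 at -0.74 in WT. By library totals the genes called higher in WT were 3, 1, 1, 2, 0, 3, 4 and 1 in these 8 lists, in the order given, and those called lower were 6, 11, 10, 4, 6, 14, 18 and 14. On that scale 1723 of all 11984 genes were called higher and 7621 lower in WT. All 10 LPS-response genes used as a check rose in both genotypes, with median log2 changes of 7.24 and 7.12.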

How the data were processed

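Poly(A) RNA of 12 libraries was sequenced as 50 bp single-end reads, and groups were taken from the labels. The deposited count tables hold whole-number read counts per RefSeq transcript, not normalized, and the deposited RPKM tables hold the authors' values per transcript length and library size, with 1 pair of tables for untreated and 1 for LPS-treated libraries. Alignment used STAR 2.5.2b and SAMtools 1.3.1 on mm10, per the submitters' processing notes, but how reads were counted, on which strand and with which annotation is not given in the sources used here.

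Of 35745 transcripts, 35435 were named by a RefSeq table of GRCm38.p6 (the assembly of mm10) and 193 by GENCODE. The other 117, with 0.259% to 0.738% of the counts of a library, were left out. Reads in several isoforms are counted for each, so each gene was represented by the transcript with the highest total count. RPKM values served for levels between genes within a group and, as log2(RPKM + 0.1) with limma, as an alternative.

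Counts were filtered with filterByExpr, scaled by TMM and tested in R 4.3.3 with edgeR 4.0.16 (quasi-likelihood F test, robust fit, Benjamini-Hochberg adjustment over all genes tested), with limma 3.58.1 and DESeq2 1.42.0 for alternatives. This edgeR test gives all adjusted p unless another tool is named. Genotypes were compared on the 6 libraries of a condition, and LPS responses and the interaction on all 12 as 4 groups. Standard errors are the size of the log2 change over the square root of F, and 95% intervals use the fit's degrees of freedom. Exact two-sided permutation of 3 against 3 libraries reaches no p below 0.1 and was not used. The script was tested on simulated data. At these totals 3 counts correspond to 0.222 to 0.347 CPM, which covers counting error only.

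Replicate numbers were checked for pairing by the correlation of deviations from group means. Untreated and LPS libraries of the same genotype and number correlated at 0.67, 0.65 and 0.38 in WT and 0.30, 0.49 and 0.23 in KO, so the LPS fits are also given with a block. WT and KO libraries of the same number correlated at 0.03, 0.10 and 0.33 untreated and at -0.07, 0.17 and 0.15 with LPS.

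The members and the gene lists were chosen with earlier results of these data known. The genes named were the members called in a genotype comparison or the interaction, the 6 largest rises and falls after LPS in WT, Ezh1, Ezh2 and Kdm6b, the most and least abundant of each kind, up to 3 members of smallest p per direction in the genotype comparisons, and up to 3 called genes of each other list. In 2 of these lists, 1 gene that the rule names is not reported here. Other names were added after their values were seen. Alternatives were DESeq2, limma-voom, RLE factors, library totals, no filter, the longest transcript, RPKM, left-out libraries, other sets of libraries and the replicate block.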

Additional observations from a re-analysis of the deposited data

How the results depend on the processing

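Scaling had the largest effect on the LPS responses. Of all 11984 genes, library totals alone called 1723 higher and 7621 lower in WT, and 1777 and 7823 in KO. With library totals alone, and likewise with limma on log2 RPKM, 3 members were called higher and 30 lower in WT and 2 higher and 31 lower in KO. All 16 WT and 14 KO falls stayed called, and 2 of the 11 WT rises (Kdm1a, Kdm3b) and 1 of the 10 KO rises (Kdm1a) were called lower by library totals. In KO, Setd1b was -0.02 by totals and -0.01 by RPKM, Kmt2a -0.10 and -0.08, and Kmt2d -0.13 and -0.12. Leaving out 1 library at a time gave 0 to 3 members higher and 0 to 1 lower in the untreated genotype comparison and 0 to 1 lower in the one with LPS. DESeq2, limma-voom, RLE factors, no filter and the longest transcript kept the counts of called members within 1.5 times. Over all genes, the genotype comparison with LPS (113 higher, 14 lower) gave 201 and 64 with DESeq2, 212 and 64 without the filter, 137 and 22 by library totals, 84 and 2 on log2 RPKM, 100 and 27 in a fit of all 12 libraries, 44 and 3 with the replicate block, 16 and 1 without the libraries numbered 2, and 16 to 359 higher and 1 to 186 lower with 1 library left out. The untreated one (0 and 0) gave 41 and 8 with DESeq2, 8 and 1 without the filter, 23 and 4 in a fit of all 12 libraries and 437 and 312 without WT replicate 1. The interaction (0 and 0) gave 17 and 7 without both WT libraries numbered 1, with 0 members. With the replicate block the genotype comparisons and the interaction kept 0 called members. Same-numbered WT and KO libraries share only a number, and not every library correlated best with its own number in the other genotype. A fit without the 4 libraries numbered 2 was added after seeing the data, and there Kmt2a in KO missed the threshold after LPS (0.46, adjusted p = 0.117). Standard errors did not follow depth alone: those of the untreated genotype difference were largest for Kdm6b (0.29) and Kmt2e (0.25, at 130 to 267 CPM), then Kdm8 (0.21) and Suv39h2 (0.20).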

Other observations

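The X-linked demethylases Kdm5c (H3K4) and Kdm6a (H3K27), known to escape X inactivation, were not among the 41 members and were looked at after their values were seen. Kdm6a had its lowest level of each group in the library numbered 2, which carried Ddx3y: 42.0, 46.6, 38.4 and 35.6 CPM in WT untreated, KO untreated, WT with LPS and KO with LPS, against 49.2 to 80.9 CPM in the libraries that carried Xist. Kdm5c showed the same order, with 96.3, 90.2, 169 and 180 CPM in the libraries numbered 2. Each group holds 1 such library, so the difference was not tested. Kdm5c also rose after LPS by 0.75 ± 0.14 in WT (edgeR adjusted p = 0.000314) and 0.82 ± 0.14 in KO (0.00013) on the TMM scale, and by library totals was not called (0.20 and 0.23), while Kdm6a stood at -0.29 ± 0.25 and -0.39 ± 0.24 and was not called.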
